A study of Arabidopsis thaliana with 12 samples.

Results

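The genes described here are the photosynthesis subunits that Arabidopsis thaliana still encodes in its plastid genome. A probe set on the ATH1 array was included where the platform's annotation gave it a single gene symbol of the form psaX, psbX, petX or ndhX, with X a capital letter, or one of atpA, atpB, atpE, atpF, atpH, atpI and rbcL. This gave 43 probe sets for 43 genes among 22746 tested, and all 43 lay on the plastid chromosome in the gene table of the TAIR10.1 assembly. They are 5 genes of photosystem I, 15 of photosystem II, 6 of the cytochrome b6f complex, 10 of the NDH complex, 6 of the ATP synthase and rbcL. The NDH gene ndhB was not included, since its probe set is annotated to both copies of a duplicated region.

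Photosystem II splits water and passes electrons through cytochrome b6f to photosystem I, and the proton gradient built on the way drives the ATP synthase. The NDH complex returns electrons from ferredoxin to this chain, and rbcL encodes the large subunit of Rubisco, the enzyme that fixes carbon dioxide. Each of these assemblies also needs nuclear-encoded subunits, so its supply depends on both genomes. Plastid genes are read by a plastid-encoded polymerase with bacterial-type subunits and nuclear-encoded sigma factors, and by a nuclear-encoded polymerase. The psa, psb and pet genes and rbcL are textbook targets of the plastid-encoded polymerase, while many atp and ndh genes can be read by both.

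Mature leaves of 4-week-old plants in the Col-0 background were compared in 4 groups of 3 biological replicates. The first group was the transgenic line Dex:YFP-CPR5-C sprayed with 50 µM dexamethasone, the second the same line sprayed with water, the third wild type (WT) sprayed with 50 µM dexamethasone, and the fourth WT sprayed with water, all collected 24 hours later. The line, called CPR5-C below, carries the C-terminal part of CPR5, a nuclear envelope protein, fused to a yellow fluorescent protein under dexamethasone control, and the study's design treats this fragment as a dominant negative. The labels do not say how many lines were used or whether leaves were pooled, and no probe set was named for CPR5, so its induction is not analysed here. All groups were grown at 22 °C with 12 hours of light and 12 hours of darkness.

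Each value below is a log2 signal from which the probe set's median over the 12 arrays had been subtracted before deposit. A value therefore places an array above or below the middle of the 12 and gives no absolute level, and leaf marker genes cannot be checked for presence. Differences carry the fitted standard error (SE) of limma over all 12 arrays, and a gene was called when its p-value, adjusted by the Benjamini-Hochberg method over all 22746 probe sets, was under 0.05. The number of arrays limits the precision. Probe sets as a whole spread more widely on the CPR5-C dexamethasone arrays (SD 0.68 to 0.69) than elsewhere (SD 0.13 to 0.23). One array stood apart for these genes: WT water replicate 1 was the highest of the 12 arrays for 29 of the 43 members (67.4%), against 5.58% of all probe sets, and results that rest on it are given with and without it. Its median over the 43 members was 0.24, against 0.05 and 0.03 on the other WT water arrays. The hybridisation spikes averaged 0.18 on it, and 0.01 and 0.12 on the other WT water arrays, and their part in this was not tested.

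Transcripts of the plastid photosynthesis genes were lower in CPR5-C leaves after dexamethasone than after water. Of the 43 members 28 fell and 0 rose (at an unadjusted p under 0.05, 31 and 0), against 24.6% of all probe sets called lower and 23.3% called higher. The median difference was -0.49 on the log2 scale (range -1.09 to 0.10), beside -0.02 over all probe sets. Of the members 20 fell by at least 0.5 log2, against 13.3% of all probe sets. The SE of these differences lay between 0.06 and 0.27. Of the members, 33 had CPR5-C dexamethasone arrays that were all below the 3 CPR5-C water arrays, which held for 28.7% of all probe sets. For 29 members (67.4%) the CPR5-C dexamethasone arrays were the lowest of all 12, against 20.6% of all probe sets. In whole leaves, fewer cells rich in plastids and less of each transcript per cell cannot be told apart.

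These directions are on the deposited scale, and they depend on it for the smaller changes. When the added poly-A spikes set each array's scale, the members had a median of -0.07 and all probe sets one of 0.39, so that 9 members were called lower and 5 higher. This scaling adds 1 constant to every difference, so the members stayed -0.47 from the median of all probe sets by construction. The 9 genes called lower on both scales were psbC, psbH, psbN and psbT of photosystem II, psaJ of photosystem I, ndhG, ndhH and ndhJ of the NDH complex and atpH of the ATP synthase. The 5 called higher with the spikes were psaB, psbM, petD, atpB and atpE, none of which was called as deposited. After quantile normalization 9 members were called lower and 0 higher, with a median of -0.31 and a distance of -0.30 from the median of all probe sets. Quantile normalization gives all arrays 1 common spread. By construction it narrows the CPR5-C dexamethasone arrays (SD 0.68 to 0.69) and widens the rest (SD 0.13 to 0.23). Calls lost under it therefore cannot decide whether the falls hold. The share of all probe sets called on these other scales is not given here. Counts of members on them, here and below, therefore have no background beside them.

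Set side by side by their medians, rbcL and the NDH genes stood lowest and photosystem II highest. The median difference was -0.75 for rbcL, -0.61 for NDH, -0.54 for ATP synthase, -0.47 for photosystem I, -0.46 for cytochrome b6f and -0.31 for photosystem II, where it turned to 0.10 with the poly-A spike scaling. By counts, 1 of 1 rbcL, 8 of 10 NDH, 3 of 6 ATP synthase, 2 of 5 photosystem I, 2 of 6 cytochrome b6f and 12 of 15 photosystem II genes fell. Of all probe sets 24.6% were called lower, and cytochrome b6f (33.3%) and photosystem I (40.0%) came nearest to that share. The order by counts was thus not the order by medians, and differences between the complexes were not tested, since genes are not replicates of a condition. Without WT water replicate 1, cytochrome b6f had 4 of 6 and ATP synthase 4 of 6 genes lower, with the same differences. Of the 12 photosystem II falls 6 were of at least 0.5 log2.

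**Figure D1:**
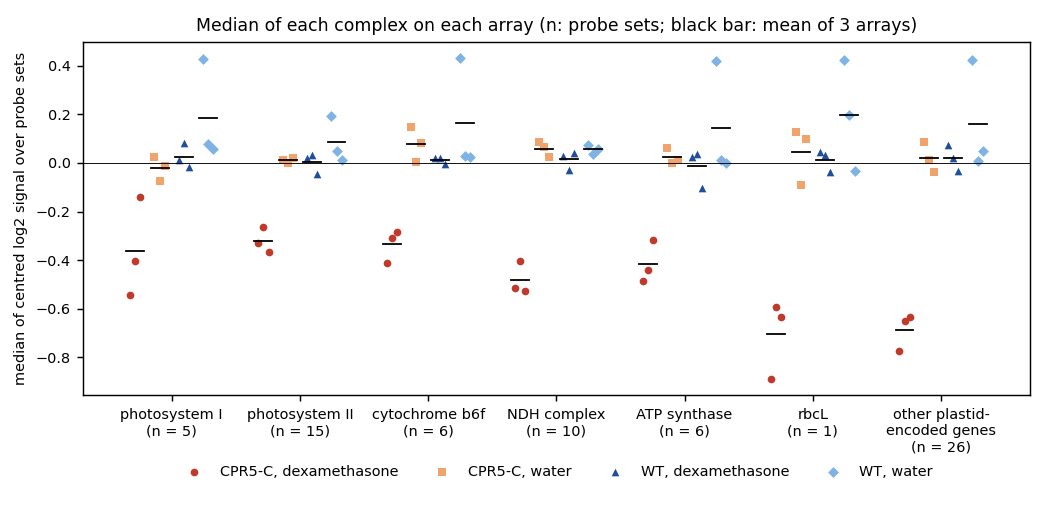
Median of the centred log2 signal over the probe sets of each complex on each of the 12 arrays, with the number of probe sets under each name and a black bar at the mean of 3 arrays. For every complex the CPR5-C dexamethasone arrays lie below 0 on the deposited scale, and WT water replicate 1 lies at 0.42 to 0.43 for photosystem I, cytochrome b6f, ATP synthase and rbcL.

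In photosystem I, the small membrane subunits psaJ and psaI fell and the large core subunits did not pass the test. For psaJ, the CPR5-C dexamethasone arrays read -1.03, -1.01 and -1.24 and the CPR5-C water arrays -0.03, -0.01 and 0.0005. The groups did not overlap, and psaJ was 2.12-fold lower (-1.08, SE 0.10, adjusted p = 2.12e-07). The psaI arrays read -0.61, -0.40 and -0.55 after dexamethasone and 0.03, -0.08 and -0.03 after water in CPR5-C plants, also without overlap (-0.49, SE 0.11, adjusted p = 0.00112). The reaction centre is built on the products of psaA and psaB, which sit side by side on the plastid genome and are transcribed together. For psaB the values were -0.04, 0.06 and 0.12 after dexamethasone and -0.01, -0.07 and -0.0043 after water in CPR5-C plants. The groups overlapped, with a difference of 0.07 and a 95% confidence interval of -0.11 to 0.25 (adjusted p = 0.546). The psaA arrays read -0.55, -0.41 and -0.06 after dexamethasone, with replicate 3 well above the others, and 0.08, -0.20 and -0.01 after water. Its difference was -0.30 (adjusted p = 0.103), and without CPR5-C dexamethasone replicate 3 it was -0.43 and passed (adjusted p = 0.02), as it did with an unchanged difference without WT water replicate 3 (adjusted p = 0.0477). For psaC, which carries the terminal iron-sulfur clusters, the values were 0.0033, -0.26 and -0.14 after dexamethasone and 0.61, 0.62 and -0.22 after water in CPR5-C plants. Water replicate 3 alone lay among the dexamethasone arrays: the difference was -0.47 (adjusted p = 0.0901) with it and -0.75 (adjusted p = 0.00362) without it.

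In photosystem II, the strongest fall was in psbC, which encodes an inner antenna protein of the core. The psbC arrays read -1.08, -0.99 and -0.92 after dexamethasone and 0.18, -0.0001 and 0.09 after water in CPR5-C plants. It was 2.13-fold lower (-1.09, SE 0.10, adjusted p = 4.07e-07). The other inner antenna gene, psbB, read -0.56, -0.54 and -0.36 after dexamethasone and 0.29, -0.16 and 0.24 after water, without overlap (-0.61, SE 0.14, adjusted p = 0.00199). Both antenna genes were therefore lower in every dexamethasone array of the line. The reaction centre is a pair of related proteins encoded by psbA and psbD. The psbD arrays read -0.98, -0.88 and -0.60 after dexamethasone and 0.03, -0.31 and -0.04 after water (-0.71, SE 0.14, adjusted p = 0.000449). For psbA, whose protein is damaged by light and replaced constantly, the arrays read -0.29, -0.20 and -0.33 after dexamethasone and -0.07, -0.13 and 0.01 after water. The fall of psbA was small (-0.21, SE 0.07, adjusted p = 0.0189), did not pass without CPR5-C water replicate 3 or without dexamethasone replicates 1 or 3 (adjusted p = 0.0521 to 0.0804), and turned to 0.20 with the poly-A spikes.

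The small membrane subunits of photosystem II split into a group with large falls and one with small or no falls. The phosphoprotein gene psbH read -0.86, -0.80 and -0.83 after dexamethasone and 0.12, -0.01 and 0.07 after water in CPR5-C plants, 3 closely spaced values in each group (-0.89, SE 0.09, adjusted p = 8.85e-07). For psbZ the values were -0.33, -0.38 and -0.40 after dexamethasone and 0.04, 0.04 and 0.17 after water (-0.45, SE 0.06, adjusted p = 2.72e-05). The changes of psbT (-0.82, SE 0.21) and psbN (-0.78, SE 0.15) were close to that of psbH in size. In tobacco the psbN product acts in assembly of photosystem II and is not a subunit of it. The cytochrome b559 genes psbE (-0.31) and psbF (-0.11, adjusted p = 0.215) and the small subunits psbI (-0.25), psbJ (-0.28), psbK (-0.21) and psbL (-0.17, adjusted p = 0.125) all lay between -0.31 and -0.11 as deposited, and all lay above 0 with the poly-A spikes. Of these psbF and psbL did not pass the test, and the calls of psbI, psbJ and psbK were lost without CPR5-C water replicate 2 (psbI and psbJ), dexamethasone replicate 3 (psbJ and psbK), dexamethasone replicate 1 or water replicates 1 or 3 (psbK), with adjusted p = 0.0535 to 0.17. At the far end psbM, a subunit at the dimer interface, read 0.05, -0.02 and 0.03 after dexamethasone and -0.17, 0.03 and -0.11 after water in CPR5-C plants (0.10, interval -0.04 to 0.24, adjusted p = 0.232).

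In the cytochrome b6f complex petB and petA fell. The petB gene encodes cytochrome b6, and its arrays read -0.68, -0.52 and -0.56 after dexamethasone and 0.11, -0.02 and 0.09 after water in CPR5-C plants (-0.65, SE 0.08, adjusted p = 5.19e-06). For petA, which encodes cytochrome f, they read -0.39, -0.36 and -0.47 after dexamethasone and 0.18, -0.01 and 0.13 after water (-0.50, SE 0.14, adjusted p = 0.00644). Both were lower in each dexamethasone array of the line than in any of its water arrays. The adjacent petD, which encodes subunit IV, read -0.03, -0.07 and -0.13 after dexamethasone and 0.03, -0.08 and 0.03 after water, with overlapping groups (-0.07, interval -0.25 to 0.12, adjusted p = 0.582). The small subunit gene petN read -0.16, -0.02 and -0.14 after dexamethasone and 0.22, 0.07 and -0.03 after water in CPR5-C plants and did not pass (-0.20, adjusted p = 0.0932). Of the other small subunits, petG (-0.49, adjusted p = 0.0946) and petL (-0.43, adjusted p = 0.203) did not pass. For petG and petL the CPR5-C groups did not overlap and the WT water arrays spread widely, reading 1.13, -0.03 and 0.03 for petG and 1.22, -0.21 and 0.13 for petL. Without WT water replicate 1 both passed with the same differences (adjusted p = 0.000967 for petG and 0.0127 for petL).

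In the NDH complex 8 of 10 genes fell, against 24.6% of all probe sets called lower. The ndhJ arrays read -0.68, -0.71 and -0.76 after dexamethasone and 0.14, -0.01 and 0.11 after water in CPR5-C plants, a 1.74-fold fall (-0.80, SE 0.09, adjusted p = 3.19e-06). For ndhD they read -0.55, -0.40 and -0.68 after dexamethasone and 0.16, 0.04 and 0.04 after water (-0.62, SE 0.08, adjusted p = 9.1e-06). For ndhA they read -0.56, -0.41 and -0.52 after dexamethasone and -0.07, 0.13 and -0.05 after water (-0.50, SE 0.07, adjusted p = 2.87e-05). None of these 3 genes had overlapping groups. Larger but less precise falls were measured for ndhG (-0.95, SE 0.22) and ndhH (-0.94, SE 0.18), and ndhK (-0.63), ndhE (-0.61) and ndhI (-0.22, at 0.20 with the poly-A spikes) completed the 8. The products of ndhA, ndhC, ndhD, ndhE, ndhF and ndhG lie in the membrane arm and those of ndhH, ndhI, ndhJ and ndhK in the arm that faces the stroma. In the membrane arm 4 of 6 measured genes fell, in the other arm 4 of 4, and the difference between the arms was not tested. The genes that did not pass were ndhF (-0.19, adjusted p = 0.0977) and ndhC, whose arrays read -0.06, 0.05 and -0.22 after dexamethasone and -0.04, 0.10 and -0.03 after water (-0.09, interval -0.25 to 0.07, adjusted p = 0.387).

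The ATP synthase genes that fell all belonged to 1 of the 2 atp transcription units. The genes atpI, atpH, atpF and atpA form a transcription unit. The atpA gene, for the catalytic head's alpha subunit, read -0.69, -0.48 and -0.51 after dexamethasone and 0.12, 0.01 and 0.03 after water in CPR5-C plants (-0.61, SE 0.08, adjusted p = 9.09e-06). For atpH, which encodes the subunit of the rotating membrane ring, the arrays read -0.82, -0.93 and -0.60 after dexamethasone and 0.09, -0.01 and 0.07 after water (-0.84, SE 0.16, adjusted p = 0.000475). The stalk gene atpF read -0.75, -0.63 and -0.64 after dexamethasone and 0.03, 0.0033 and -0.0033 after water (-0.69, SE 0.14, adjusted p = 0.000785). All 3 were lower in every dexamethasone array. The membrane subunit gene atpI had a difference of -0.46 (adjusted p = 0.189) and passed without WT water replicate 1 (adjusted p = 0.0421). The genes atpB and atpE, for the beta and epsilon subunits of the head, form another unit. The atpB arrays read 0.01, -0.05 and -0.02 after dexamethasone and -0.01, 0.04 and -0.03 after water in CPR5-C plants, a difference of -0.02 (interval -0.15 to 0.11, adjusted p = 0.869). For atpE the arrays read -0.02, 0.06 and 0.01 after dexamethasone and -0.02, -0.04 and -0.01 after water, a difference of 0.04 (interval -0.08 to 0.16, adjusted p = 0.628). The difference between the units was not tested.

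The rbcL arrays read -0.89, -0.59 and -0.64 after dexamethasone and 0.13, -0.09 and 0.10 after water in CPR5-C plants, so the groups did not overlap. The gene was 1.68-fold lower (-0.75, SE 0.11, adjusted p = 3.81e-05), and with the poly-A spikes it stood at -0.34 (adjusted p = 0.0545).

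**Figure D2:**
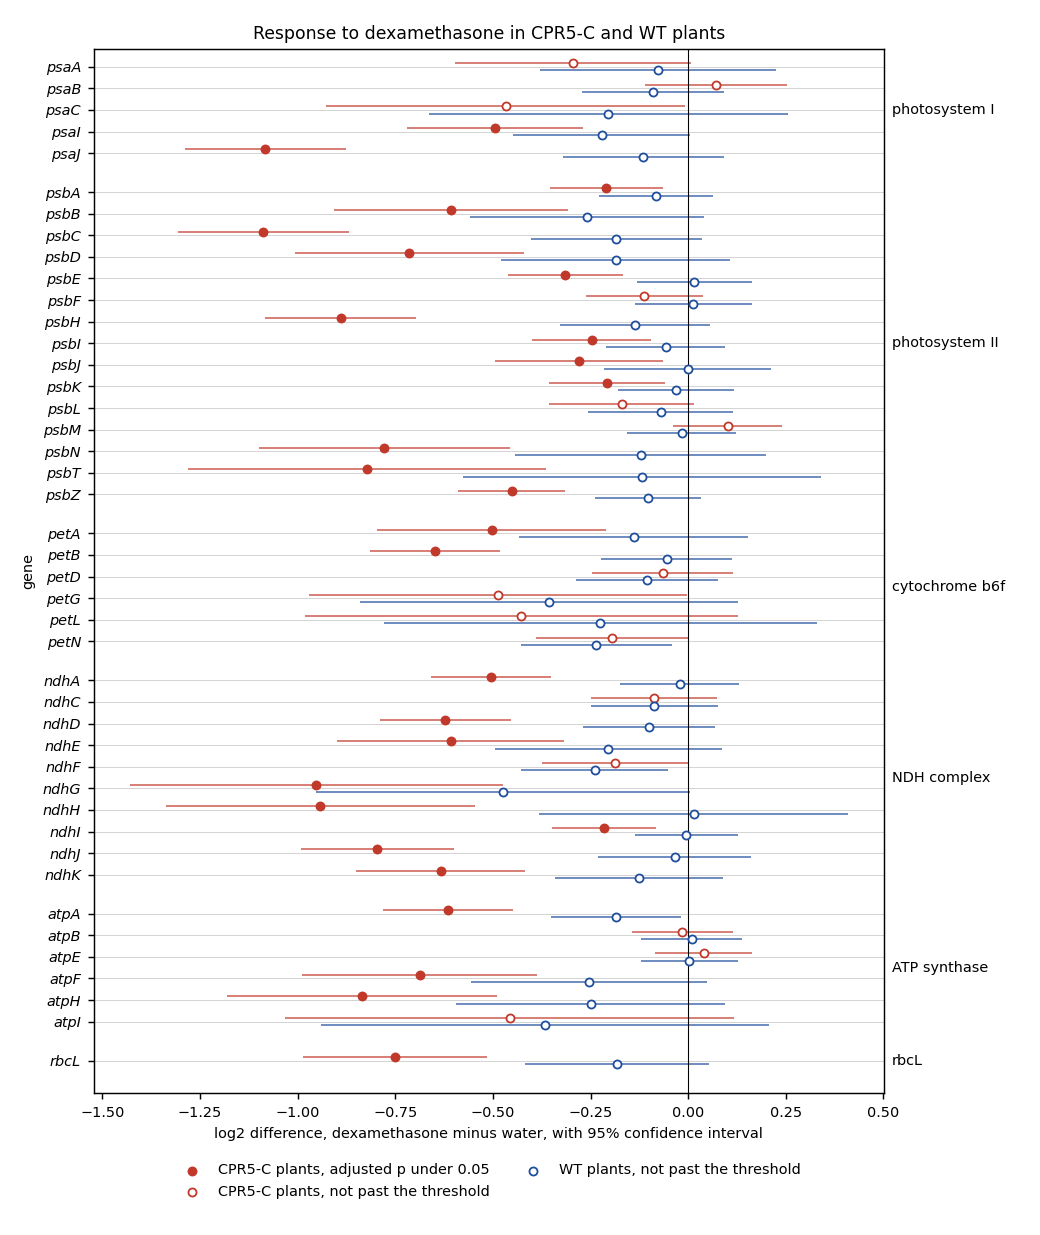
Log2 difference between dexamethasone and water for each gene in CPR5-C plants (red) and WT plants (blue), with 95% confidence intervals from the fit on 12 arrays; filled points passed an adjusted p of 0.05. On the deposited scale 28 of 43 red points are filled, all below 0, and 0 blue points are filled; 6 of the filled points, among them psbA and ndhI, lie above 0 when the arrays are scaled to the poly-A spikes.

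Along the plastid genome, genes of a transcription unit often had unlike differences in CPR5-C plants. In the unit psbB, psbT, psbH, petB and petD, which is transcribed as 1 precursor and then cut, the first 4 had differences of -0.61, -0.82, -0.89 and -0.65, and the last, petD, was at -0.07. In the unit ndhC, ndhK and ndhJ the values were -0.09, -0.63 and -0.80. In the unit petL, petG and psaJ they were -0.43 (SE 0.26), -0.49 (SE 0.23) and -1.08 (SE 0.10), and petL and petG did not pass. Differences between genes of a unit were not tested. The units psbE, psbF, psbL and psbJ (range -0.31 to -0.11), psbK and psbI (-0.21 and -0.25) and atpB and atpE spread less, with small differences throughout. The SD among their members was 0.09, 0.03 and 0.04. In the first of these units psbE and psbJ were called and psbF and psbL were not. Over 10 units with 35 members, the SD among the members of a unit was 0.03 to 0.37, against 0.32 over all 43 members. Outside the photosynthesis complexes, rps14, a ribosomal protein gene cotranscribed with psaA and psaB, was at -0.11 (adjusted p = 0.397).

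**Figure D3:**
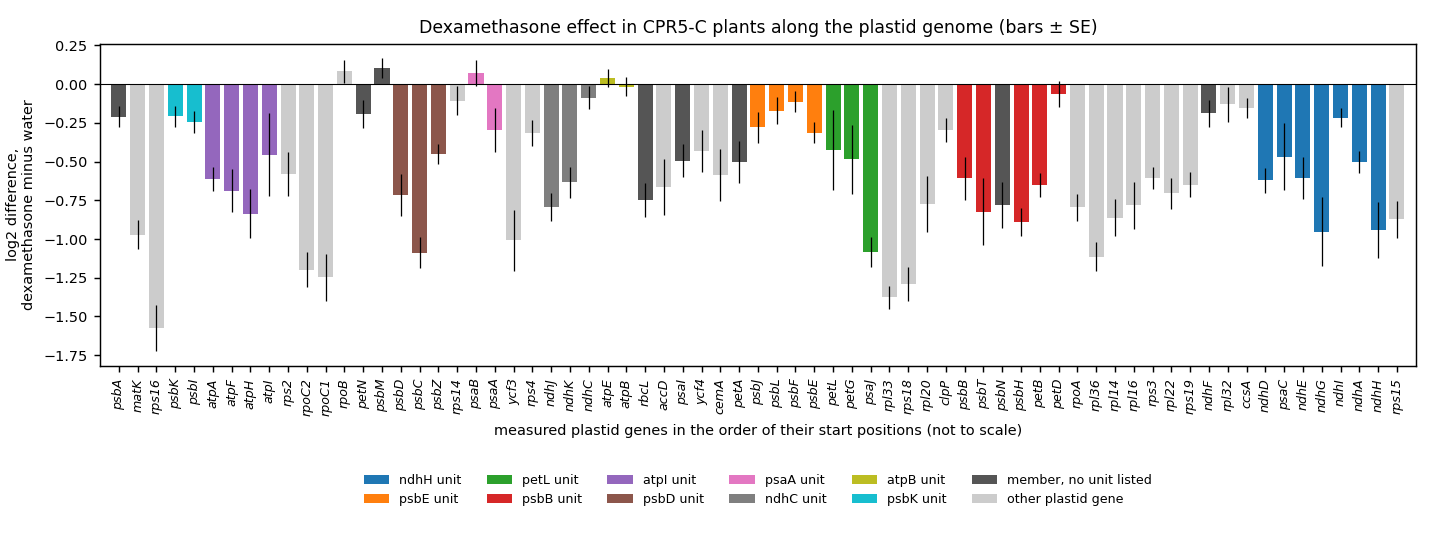
Log2 difference between dexamethasone and water in CPR5-C plants for the 69 measured plastid genes, in the order of their start positions and not to scale, with bars ± SE. Coloured bars are photosynthesis genes by transcription unit, dark grey ones those in no listed unit, and light grey ones other plastid genes; atpB, atpE, psaB and psbM stand near 0 on the deposited scale, each above 0.39 with the poly-A spikes.

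Grouped by the polymerases that textbooks assign, the psa, psb and pet genes and rbcL had a median difference of -0.45 in CPR5-C plants, with 17 of 27 lower, and the atp and ndh genes one of -0.61, with 11 of 16 lower. The other 26 plastid-encoded genes, which serve mainly translation and transcription in the plastid, had a median of -0.74 (range -1.58 to 0.08), with 22 lower and 0 higher (23 and 0 at an unadjusted p under 0.05). Of all probe sets in the same comparison, 24.6% were called lower and 23.3% higher. The difference between these groups of plastid genes was not tested, and falls of this size were measured in plastid genes of other functions too.

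Few nuclear genes of the same complexes had a named probe set. All 9 measured nuclear genes of photosystem I, photosystem II, the ATP synthase and the antenna fell in CPR5-C plants after dexamethasone. Of all probe sets, 24.6% were called lower in the same comparison. The differences of the 9 genes lay between the antenna gene LHCB4.3 (-1.53, SE 0.13) and LHCB4.1 (-0.31, SE 0.06). In photosystem II, PSBY stood at -0.67 (SE 0.06) and PSBW at -0.34 (SE 0.06), in photosystem I PSAN at -0.59 (SE 0.06) and PSAE-1 at -0.32 (SE 0.06). ATPC2 (-0.40, SE 0.09) and ATPC1 (-0.37, SE 0.05) encode the gamma subunit of the ATP synthase, whose plastid-encoded partner atpB was at -0.02. The poly-A spike scaling adds the same amount to every difference and turns the sign of PSBW, PSAE-1, LHCB4.1 and both gamma subunits. RCA, the Rubisco activase, did not pass (-0.07, adjusted p = 0.374). No nuclear gene of cytochrome b6f, of the NDH complex or of the plastid transcription machinery was measured by a named probe set.

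Nuclear genes for assembly of these complexes and for processing of their transcripts also fell for the most part. Of 15 measured, 12 fell and 1 rose (OTP81, 0.53), against 24.6% of all probe sets called lower and 23.3% called higher. The median over the 15 was -0.73, beside -0.02 over all probe sets. These values are on the deposited scale, and the poly-A spike scaling adds the same amount to every difference. HCF101, which assembles iron-sulfur clusters for photosystem I, was at -1.16 (SE 0.06, adjusted p = 1.18e-09). CRR21, an RNA-binding protein that acts in editing of the ndhD transcript, was at -1.35 (SE 0.10, adjusted p = 4.29e-08). PAM68, an assembly factor of photosystem II, was at -0.95 (SE 0.08), and CRR42, a factor for NDH assembly, at -0.87 (SE 0.08). In WT plants none of these 4 passed after dexamethasone, with 0.04 for HCF101, 0.19 for CRR21, -0.10 for PAM68 and 0.17 for CRR42. The response of each differed between the genotypes, with interactions of -1.20, -1.54, -0.85 and -1.04, each called by limma. The 4 genes were named for the smallest p in CPR5-C plants. The same arrays enter the interaction, so these calls are not separate evidence.

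Senescence genes also changed in these plants. Of 12 measured genes of senescence and plastid breakdown, 8 rose and 2 fell in CPR5-C plants after dexamethasone, against 23.3% of all probe sets called higher and 24.6% called lower. SAG29 was at 6.42 (SE 0.14), and the autophagy genes ATG8D and APG8A were at 1.50 (SE 0.08) and 1.40 (SE 0.10), while ATG8E fell (-2.18, SE 0.12). In WT plants 2 of the 12 fell after dexamethasone, ATG8E (-0.86) and WRKY53 (-1.87), and 0 rose by limma. Of all probe sets, 9.08% were called in either direction in that comparison. After water ATG8E was also lower in CPR5-C than in WT plants (-0.66). Of the cell type markers, 1 of 2 guard cell genes fell (FMA, -0.28, a sign that the poly-A spike scaling turns), the phloem transporter SWEET11 rose (0.51), the trichome regulator TRY fell (-2.38), and root, epidermis and mesophyll markers had no named probe set. Centring removed the summed level of these lists. The part of any of these genes in the fall of the plastid transcripts was not tested.

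The ribosomal RNA probe sets, which measure RNA without a poly-A tail, were low on the same arrays. The 25S rRNA probe set averaged -0.50 ± 0.03 on CPR5-C dexamethasone arrays, -0.03 ± 0.14 on CPR5-C water arrays, 0.08 ± 0.10 on WT dexamethasone arrays and 0.07 ± 0.09 on WT water arrays (SD, n = 3 each). The 5S rRNA probe set averaged -0.22 ± 0.0058, 0.06 ± 0.06, -0.03 ± 0.04 and 0.03 ± 0.01 in the same order of groups. Both were lower on each CPR5-C dexamethasone array than on any other array. The poly-A spikes averaged -0.38 ± 0.26 on CPR5-C dexamethasone arrays, with -0.46, -0.59 and -0.09 on single arrays, and 0.03 ± 0.07 on CPR5-C water arrays. The hybridisation spikes, added after amplification, read -0.17, -0.08 and -0.24 on CPR5-C dexamethasone arrays and -0.07, 0.04 and -0.03 on CPR5-C water arrays, and all 3 dexamethasone arrays were below every other array. The difference between 3' and 5' probe sets was -0.20 ± 0.06 on CPR5-C dexamethasone arrays and 0.0024 ± 0.07 on CPR5-C water arrays for actin. For ubiquitin it was -0.12 ± 0.07 on CPR5-C dexamethasone arrays and -0.0008 ± 0.03 on CPR5-C water arrays. An older ubiquitin pair stood at -0.16 ± 0.04 on CPR5-C dexamethasone arrays and -0.0037 ± 0.06 on CPR5-C water arrays, and an older GAPDH pair at -0.14 ± 0.09 on CPR5-C dexamethasone arrays and -0.02 ± 0.14 on CPR5-C water arrays. The other GAPDH pair and an older actin pair were higher instead, with 0.07 ± 0.15 on CPR5-C dexamethasone arrays and -0.03 ± 0.05 on CPR5-C water arrays for GAPDH. For actin the values were 0.19 ± 0.06 on CPR5-C dexamethasone arrays and -0.06 ± 0.06 on CPR5-C water arrays. The part of these controls in the result was not tested.

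**Figure D4:**
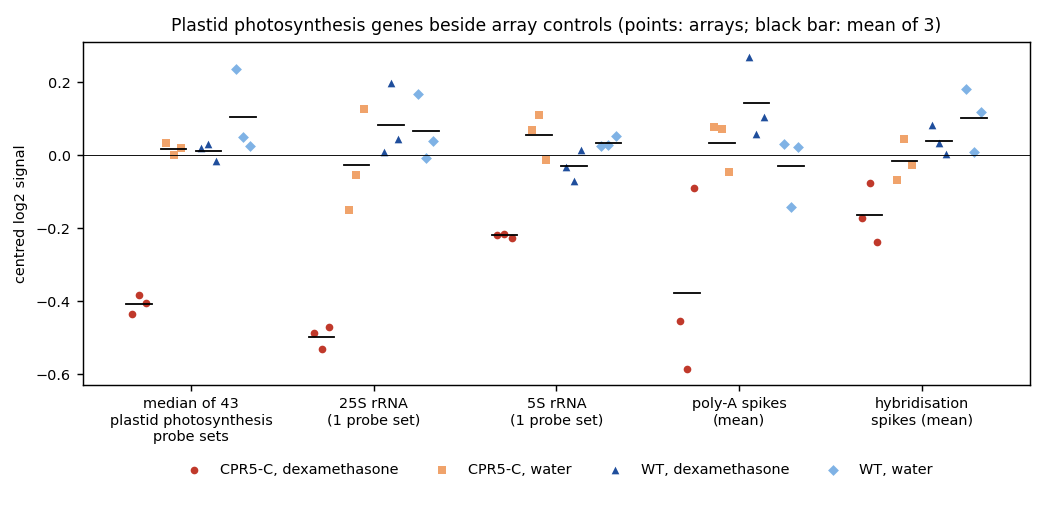
Centred log2 signal on each array for the median of the 43 plastid photosynthesis probe sets, the 25S and 5S rRNA probe sets, and the means of the poly-A and hybridisation spikes, with a black bar at the mean of 3 arrays. The CPR5-C dexamethasone arrays are the lowest for the photosynthesis genes and both rRNAs, and also for the hybridisation spikes, and spread from -0.59 to -0.09 for the poly-A spikes.

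WT plants sprayed with dexamethasone served as the control for the chemical. No member passed the test by limma (0 of 43 lower and 0 higher), 3 had an unadjusted p under 0.05, all lower, and 9.08% of all probe sets were called. The median difference was -0.11 (range -0.47 to 0.02), and 4 members had all dexamethasone arrays below all water arrays, against 10.6% of all probe sets. The median rested on 1 array: without WT water replicate 1 it was -0.0070. The psaI arrays of WT plants read 0.07, 0.07 and -0.05 after dexamethasone and 0.54, 0.16 and 0.06 after water. For atpH they read 0.01, 0.03 and -0.16 after dexamethasone and 0.70, 0.07 and -0.14 after water. For atpI they read 0.34, 0.22 and -0.49 after dexamethasone and 1.17, 0.01 and -0.01 after water. In each of these genes the first water array stood far above the other 2. For rbcL the WT arrays read 0.05, 0.03 and -0.04 after dexamethasone and 0.42, 0.20 and -0.03 after water (-0.18, adjusted p = 0.377). The lowest value was that of ndhG (-0.47, adjusted p = 0.241), which was called with the poly-A spikes at -0.65. The 95% confidence intervals were narrow for the genes that had also been near 0 in CPR5-C plants, with -0.12 to 0.14 for atpB and -0.12 to 0.13 for atpE.

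**Figure D5:**
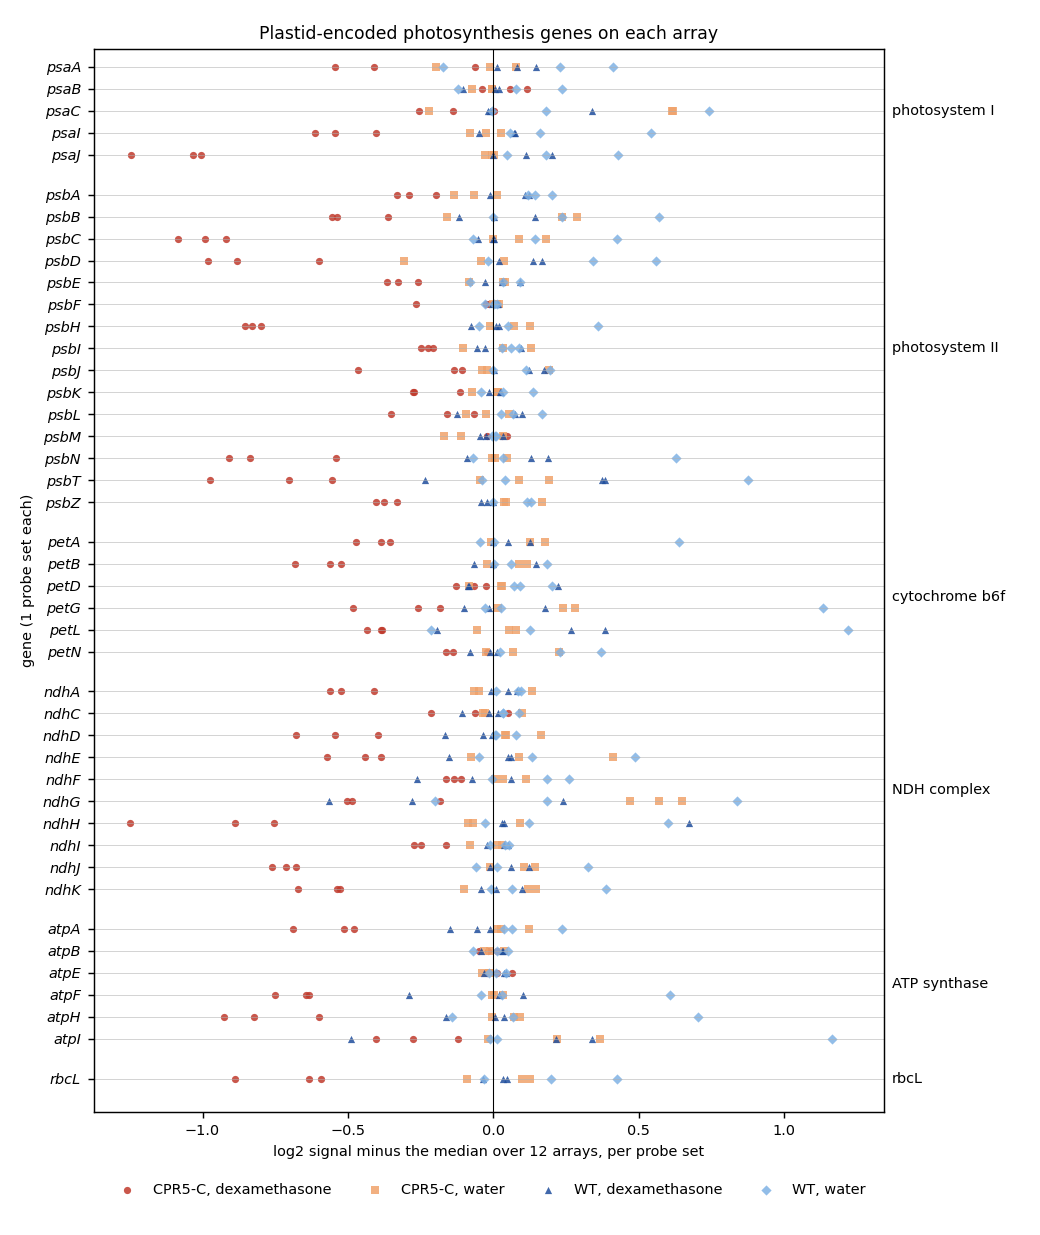
Centred log2 signal of each of the 43 genes on each of the 12 arrays, in order of complex, with a marker for each group. On the deposited scale the CPR5-C dexamethasone arrays lie left of all others for 29 genes, and WT water replicate 1 lies farthest right for 29 genes, reaching 1.22 for petL.

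The genotype by dexamethasone interaction set the response of CPR5-C plants against that of WT plants. It was negative and called for 15 of 43 members and positive for 0 (19 and 0 at an unadjusted p under 0.05), against 20.4% of all probe sets called negative and 18.1% called positive, with a median of -0.33 as deposited that turned to 0.25, with 8 members called positive, under the poly-A spike scaling. The median of all probe sets was 0.01 as deposited and 0.59 under that scaling. In 11 of the 15 the interaction was at least 0.5 log2 in size, against 13.9% of all probe sets. The 15 genes were psaJ, 6 of photosystem II (psbC, psbD, psbE, psbH, psbN and psbZ), petB, 5 of NDH (ndhA, ndhD, ndhH, ndhJ and ndhK), atpA and rbcL. The largest were psaJ (-0.97, SE 0.14, adjusted p = 4.16e-05), ndhH (-0.96, SE 0.26, adjusted p = 0.00874) and psbC (-0.90, SE 0.14, adjusted p = 0.000142). After quantile normalization, which narrows the CPR5-C dexamethasone arrays by construction, 0 members were called by limma and the median was -0.11. Without WT water replicate 1 there were 24 calls and the median was -0.48. The 9 genes added were psaI (-0.42), psbB (-0.50), psbT (-0.997), petA (-0.58), petG (-0.51), petL (-0.62), ndhE (-0.55), atpF (-0.64) and atpH (-0.83).

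CPR5-C and WT plants were then compared after the same dexamethasone spray, a contrast that leaves the WT water arrays out of the difference. In CPR5-C plants 28 of 43 members were lower and 0 higher (29 and 0 at an unadjusted p under 0.05), against 24.1% of all probe sets called lower and 23.3% called higher, and the median was -0.42 as deposited and 0.10 with the poly-A spikes, where all probe sets had a median of 0.53, 9 members were called higher and 5 lower. After quantile normalization, with the same limit, 2 members were called and the median was -0.23. By at least 0.5 log2, 15 members were lower, against 13.3% of all probe sets, and 31 had all CPR5-C arrays below all WT arrays, against 27.1%. For ndhH the arrays read -1.25, -0.75 and -0.89 in CPR5-C plants and 0.67, 0.03 and 0.04 in WT plants (-1.21, SE 0.18, adjusted p = 5.85e-05). For psaJ they read -1.03, -1.01 and -1.24 in CPR5-C plants and 0.20, 0.11 and -0.0005 in WT plants (-1.20, SE 0.10, adjusted p = 7.36e-08). The groups of both genes were fully apart. By complex, 3 of 5 photosystem I, 12 of 15 photosystem II, 2 of 6 cytochrome b6f, 7 of 10 NDH and 3 of 6 ATP synthase genes and rbcL (-0.72) were lower. The WT water arrays still entered the error of this contrast: without WT water replicate 1, petL (adjusted p = 0.00236) and petG (adjusted p = 0.0143) passed too, for 4 of 6 in cytochrome b6f. The genes near 0 included atpE (0.0025), atpB (-0.02), psbM (0.03), ndhF (-0.04) and ndhC (-0.04), all above 0.47 with the poly-A spikes. The psaA gene was lower here (-0.42, adjusted p = 0.0231), a call that was lost without CPR5-C dexamethasone replicates 1 or 2 or WT dexamethasone replicates 2 or 3 (adjusted p = 0.054 to 0.112), and its difference turned to 0.10 with the poly-A spikes. This contrast shares the CPR5-C dexamethasone arrays with the one against water, so the counts are not independent.

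The last contrast set CPR5-C against WT plants after water alone. In it 0 of 43 members were called between CPR5-C and WT plants by limma, 4 had an unadjusted p under 0.05, all lower in CPR5-C plants, and 7.08% of all probe sets were called. The median was -0.09 (range -0.40 to 0.29), and 0.0027 without WT water replicate 1. In 4 members all CPR5-C arrays were below all WT arrays, against 10.4% of all probe sets. The lowest gene was psbD, with 0.03, -0.31 and -0.04 on CPR5-C water arrays and 0.56, 0.34 and -0.02 on WT water arrays, and its groups overlapped (-0.40, interval -0.69 to -0.11, adjusted p = 0.105). It passed without WT water replicate 3 (-0.55, adjusted p = 0.0243). The highest was ndhG (0.29, adjusted p = 0.547).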

How the data were processed

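Total RNA from leaves was amplified with the MessageAmp Premier kit and hybridised to Affymetrix ATH1 arrays, per the labels' protocols and the platform annotation. The kit primes on poly-A tails, which plastid transcripts mostly lack or carry only in short form, so a value can depend on tail length and priming as well as on transcript amount. The authors deposited 1 log2 value per probe set and array, and RMA is the tool that the submitters' processing notes name. The deposited log2 values had a median near 0 for each probe set over the 12 arrays, so absolute levels and a filter on dim probe sets could not be had. The base of the log was taken as 2, as RMA gives, and is not stated in the sources used here.

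Of 22810 probe sets, 64 controls were left out of the tests. Of the 22746 tested, 13513 had 1 gene symbol, 503 several and 8730 none. A model with 4 group means was fitted to all 12 arrays with limma 3.58.1 in R 4.3.3 (8 residual degrees of freedom), and 5 contrasts were taken with Benjamini-Hochberg adjustment over all probe sets. The fit was checked on simulated data. Alternatives were another scaling (array medians, poly-A spikes, quantiles), a variance trend, a replicate block, a fold threshold, the compared groups alone, and each array left out. Within each complex, per-array values were given for the 3 genes with the smallest p, the gene with the largest p, and a fixed list of core subunits. In other lists at most 4 genes with the smallest p were named, and genes beyond these were named after their values were seen. The members and the lists were chosen with earlier results of these data known. Roles, polymerases and transcription units were assigned from textbook knowledge. No gene sequence is printed here.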

Additional observations from a re-analysis of the deposited data

Results flagged for a closer look

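In 15 genes the response to dexamethasone differed between CPR5-C and WT plants by the test of the difference itself, the interaction term of limma. On the log2 scale the interaction was -0.97 for psaJ in photosystem I. In photosystem II it was -0.90 for psbC, -0.75 for psbH, -0.66 for psbN, -0.53 for psbD, -0.35 for psbZ and -0.33 for psbE. It was -0.59 for petB in cytochrome b6f. In the NDH complex it was -0.96 for ndhH, -0.76 for ndhJ, -0.52 for ndhD, -0.51 for ndhK and -0.48 for ndhA. It was -0.43 for atpA and -0.57 for rbcL. These calls hold on the deposited scale: none of the 15 was called with the poly-A spike scaling, and none after quantile normalization. Quantile normalization narrows the widely spread CPR5-C dexamethasone arrays and widens the others by construction, so its lost calls cannot decide whether the interaction holds. With the poly-A spike scaling, the interaction was above 0 for ndhA, ndhD, ndhK, psbD, psbE, psbZ, atpA and rbcL. The call of psbD was lost without any 1 of 8 arrays and that of psbN without any 1 of 6 arrays.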

How the results depend on the processing

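Directions and calls depended on the scaling of the arrays. Several calls also depended on single arrays, among them psbA, psbI, psbJ, psbK, psaA, psaC, petG, petL and atpI, and psbD and psbN in the interaction. With poly-A spike scaling, members called numbered 14 for dexamethasone in CPR5-C plants (5 higher and 9 lower, median -0.075), 1 in WT plants (median -0.29), 8 for the interaction (all higher, median 0.25) and 14 between CPR5-C and WT plants after dexamethasone (9 higher and 5 lower, median 0.10), and the median after water was -0.15. Under the same scaling the medians per complex in CPR5-C plants were -0.056 for photosystem I, 0.10 for photosystem II, -0.046 for cytochrome b6f, -0.20 for NDH, -0.12 for ATP synthase and -0.34 for rbcL. After quantile normalization the calls were 9 (median -0.31) in CPR5-C plants, 0 (median -0.11) for the interaction and 2 (median -0.23) after dexamethasone, and the medians per complex were -0.19, -0.15, -0.29, -0.36, -0.33 and -0.37 in the same order. That step gives arrays of unlike spread 1 common spread, so its lost calls cannot decide whether the deposited differences hold. A threshold of 0.5 log2 left 20 calls in CPR5-C plants, 11 for the interaction and 15 between genotypes after dexamethasone. The cause of these changes was not tested.

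With the spikes, and among genes called on either scale, the log2 difference turned positive in CPR5-C plants for ndhI 0.20, psbE 0.10, petD 0.35, atpB 0.40, psbJ 0.13, psbI 0.16, psbA 0.20 and psbK 0.20, and among genes called on neither scale for psbF 0.30, psbL 0.24, ndhF 0.22, petN 0.22, psaA 0.12 and ndhC 0.32. Among genes called on either scale the interaction turned to ndhA 0.10, ndhD 0.063, psbE 0.25, psbD 0.056, psbZ 0.24, ndhK 0.077, ndhC 0.58, atpB 0.56, rbcL 0.018 and atpA 0.15, and for psbD to 0.12 after quantile normalization. Between CPR5-C and WT plants after dexamethasone the values of such genes became ndhE 0.068, ndhI 0.27, ndhD 0.051, psbF 0.41, psbE 0.17, psbB 0.027, petD 0.43, ndhF 0.48, petN 0.44, psbZ 0.17, psaA 0.10, ndhC 0.48, atpB 0.50, petA 0.059, psbJ 0.19, psbI 0.29, atpA 0.032, psbA 0.18 and psbK 0.29.

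Leaving out each array in turn gave 26 to 31 calls (median -0.52 to -0.47) in CPR5-C plants, 0 to 1 (median -0.18 to -0.0070) in WT plants, 13 to 24 (median -0.48 to -0.24) for the interaction, 26 to 30 (median -0.42 to -0.39) after dexamethasone and 0 to 1 (median -0.14 to 0.0027) after water. The value of 0.0027 is that without WT water replicate 1. Medians per complex ranged from -0.49 to -0.33 for photosystem I, -0.35 to -0.29 for photosystem II, -0.49 to -0.40 for cytochrome b6f, -0.68 to -0.55 for NDH, -0.60 to -0.50 for ATP synthase and -0.82 to -0.66 for rbcL.

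With the replicate number as a block, 28 members were called in CPR5-C plants, 0 in WT plants, 15 for the interaction, 29 between genotypes after dexamethasone and 0 after water. Same-numbered arrays correlated at -0.207 to 0.362 over 18 pairs, so the numbers were not taken to pair the samples. In the interaction the block lost psbD (adjusted p = 0.061) and added ndhE (adjusted p = 0.0334). Leaving out all 3 WT water arrays, an alternative chosen after seeing the data, gave 31 calls in CPR5-C plants. A filter on dim probe sets was not run, and 1 value per gene changed nothing, since each gene had 1 probe set.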
